A study of Sus scrofa with 30 samples.

Results

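The genes described here were near absent from pig embryos on Day 8 and Day 10 and present on Day 12. They were selected on the day means of CPM (the read count of a gene divided by the total count of its embryo, times 1000000): under 0.5 CPM on both earlier days and at least 3 CPM on Day 12. Of 13103 genes in the table of all embryos, 141 met these limits. PAG6, LOC110259249, IFN-DELTA-1 and FUT9 were left out by name, which leaves 137 members, fewer than the cap of 300. The same day means chose the members, so their rise is a description and was not tested.

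Transcriptomes of 30 single whole pig embryos, embryonic disc and trophectoderm together, were sequenced at Days 8, 10 and 12 after insemination, with 5 embryos of either sex at each stage. An embryo is named by day, sex (f or m) and number, as d12_f_245. The embryos came from German Landrace × Pietrain crossbred gilts whose cycles were synchronised with altrenogest, PMSG and hCG, and a single Pietrain boar sired all of them. Embryos were flushed from the uterine horns and received no treatment. On each day 4 gilts were slaughtered, and female and male embryos were taken from the same gilts. How many of these gilts gave the sequenced embryos is not stated in the paper. Which gilt an embryo came from is not given in the labels, littermates are not independent, and p-values here measure only the spread between embryos.

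Between these days the hatched pig blastocyst grows and stretches into a long thread. Trophectoderm, the outer epithelium, makes most of its mass, extraembryonic endoderm lines it and secretes plasma-type proteins, and the embryonic disc gives rise to mesoderm. Around Day 12 the conceptus releases oestrogen, the signal by which the sow recognises pregnancy, and soon afterwards it begins to attach to the uterine epithelium. In whole embryos a low level can mean fewer cells of a type or less RNA per cell, and these cannot be told apart.

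The members were 6 long non-coding RNAs, 2 pseudogenes and, for the rest, protein-coding genes. They lay on 20 chromosomes of the Sscrofa11.1 assembly, 7 of them on X and 1 on Y, and 5 were on unplaced sequence. Most were weakly expressed. The median member had a Day 12 mean of 5.99 CPM, 53 members lay under 5 CPM, 42 reached 10 CPM and 2 reached 100 CPM. In all, 10578 genes of the table had a Day 12 mean of at least 3 CPM. The table itself appears to hold genes with at least 0.5 CPM in 4 or more embryos, a limit that the paper does not state. Genes low on both earlier days would thus tend to be in it through Day 12 embryos. Of 610 such genes, 604 had a Day 12 mean of at least 0.5 CPM. How many of them met this only through Day 12 embryos is not given here. Counts were not divided by transcript length, so an order of genes by CPM is an order of read counts and not of transcript levels.

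The limits cut through a continuous range. On Day 12 the last genes inside were LOC106506715 (3.01 CPM), LOC106507765 (3.06) and LOC100626318 (3.10), and the first outside were LOC106506691 (2.97), LYZ (2.96) and QPCT (2.94). On Day 8, EMB (0.499 CPM), CCDC136 (0.474) and SHISA9 (0.471) lay just inside, and BMP4 (0.514), LOC100157935 (0.517) and CFAP52 (0.537) just outside. On Day 10, ERICH3 (0.493 CPM), UNC5D (0.479) and NEFM (0.477) lay just inside, and LOC102166104 (0.503), RAB19 (0.509) and MUC4 (0.511) just outside.

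The members together held from 0.130% to 0.400% of the counts of a Day 12 embryo, with a median of 0.204%. Embryo d12_m_276 held the most, d12_m_286 followed with 0.281%, and d12_f_271 held the least. No Day 8 embryo exceeded 0.00295%, and Day 10 embryos ran from 0.00215% to 0.00630%. For 99 members the lowest Day 12 embryo lay above every Day 8 and Day 10 embryo. The choice by day means favours such a gap, and the share over all genes is not given here. At a level of 0.5 CPM, 104 members were present in all 10 Day 12 embryos and 33 were missing from at least 1. Only LOC110255452, a pseudogene, and HSD3B1, which makes progesterone, had no count in any of the 20 earlier embryos.

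Day 10 embryos were not alike in how many members they already held. Embryo d10_m_453 had 53 of the 137 members at 0.5 CPM or more, d10_f_454 had 36 and d10_m_435 had 21, while the other Day 10 embryos had between 6 and 15. At 1 CPM or more the counts were 16, 5 and 6 for those 3 embryos. The early members of d10_m_453 came from all profiles described further on: 26 of 72 in the first group, 12 of 32 in the second, 8 of 20 in the third, 6 of 10 in the fourth and 1 of 3 in the fifth. Across Day 8 embryos 4 members reached 1 CPM in at least 1 embryo, against 32 members across Day 10 embryos.

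**Figure D1:**
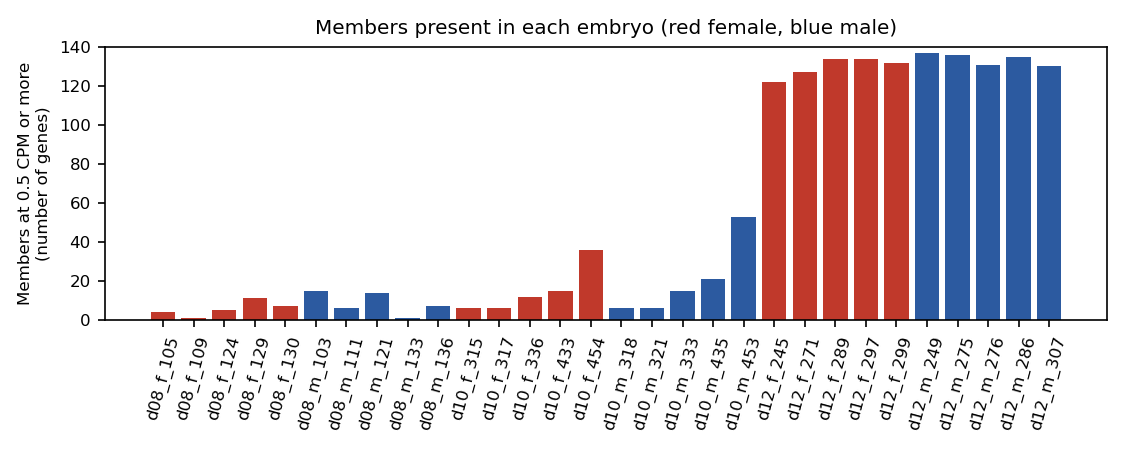
Number of the 137 members at 0.5 CPM or more (vertical axis) in each of the 30 embryos (horizontal axis, d and the day, f for female in red, m for male in blue, then the embryo number). Day 12 embryos held 122 to 137 members, and among earlier embryos d10_m_453 and d10_f_454 of Day 10 held the most, 53 and 36.

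The pair with the most reads on Day 12, as mean CPM, were LOC100522849 and ATP10B. LOC100522849 (gene 100522849, chr2:10340130-10349422, protein-coding) ran from 31.6 CPM in d12_f_245 through a median of 340.4 to 1413 in d12_m_276, with a mean of 422.1 ± 401 (SD, n = 10). Embryo d12_m_276 stood at the top by a wide gap over d12_m_286 (705 CPM), and d12_f_245, d12_f_271 (98.0) and d12_m_307 (102) at the bottom. The gene lies within the span of PAG6, a pregnancy-associated glycoprotein gene, and 50070 bp from LOC110259249. How reads of overlapping or near-identical genes were assigned is not given in the sources used here, so its counts are uncertain.

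ATP10B (chr16:62569813-62918484), a member of the lipid flippase family of the membrane, ranged from 31.8 CPM in d12_f_245 through 290.1 to 488 in d12_m_276. Its mean was 285.6 ± 133.4 CPM (SD, n = 10), against 0.0179 CPM on Day 8 and 0.359 on Day 10. Apart from d12_f_245 and d12_f_271 (111.2 CPM), all Day 12 embryos lay at 268.7 CPM or more.

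**Figure D2:**
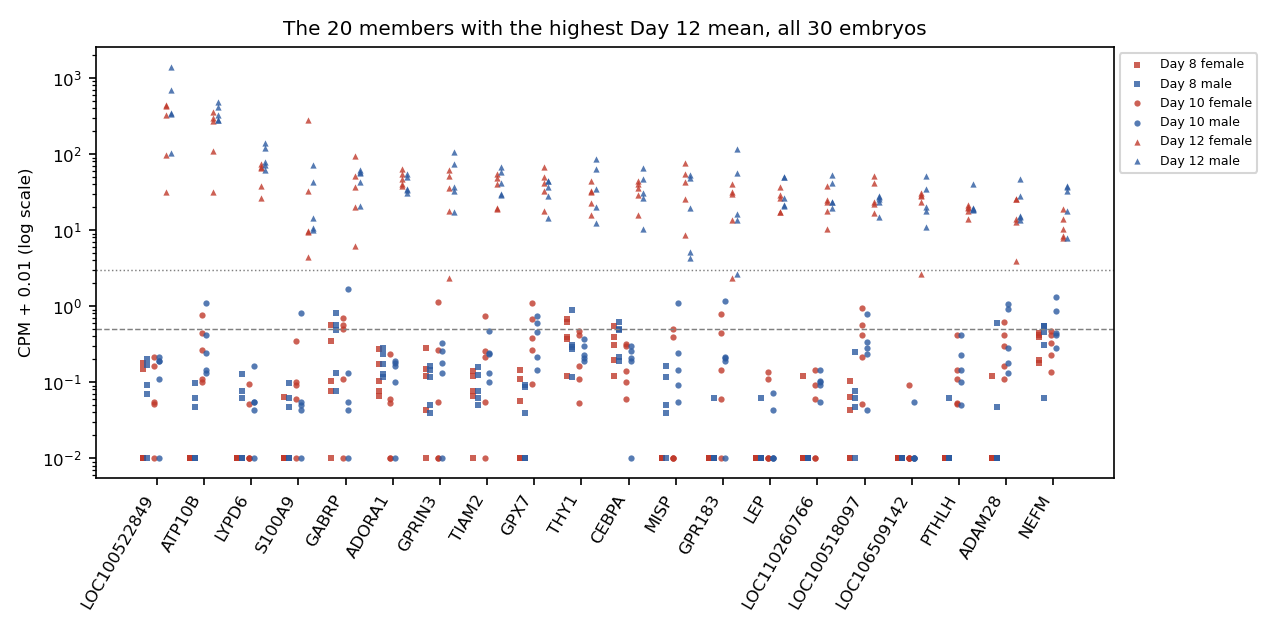
CPM plus 0.01 on a log scale (vertical axis) of the 20 members with the highest Day 12 mean (horizontal axis) in all 30 embryos; squares are Day 8, circles Day 10 and triangles Day 12, red female and blue male, and the dashed and dotted lines mark 0.5 and 3 CPM. LOC100522849 reached 1413 CPM and ATP10B 488 CPM in d12_m_276, and GPRIN3, GPR183 and LOC106509142 each had an embryo under 3 CPM on Day 12.

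Secreted signals and hormones numbered 12. LEP, leptin, ran from 17.3 through 26.5 to 50.6 CPM, with d12_m_276 and d12_m_286 (49.9 CPM) above the rest. PTHLH, parathyroid hormone-related protein, was close to uniform: 9 embryos lay between 14.2 and 21.3 CPM, and d12_m_307 alone had 40.2.

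WNT7B, a Wnt ligand, ran from 1.25 CPM in d12_m_307 through 4.58 to 24.7 in d12_m_276. INHBB, the beta chain of activin B, ran from 0.989 through 4.15 to 14.6 CPM, again highest in d12_m_276. The next embryo had 10.4 CPM of WNT7B and 9.53 of INHBB. RSPO1, which strengthens Wnt signals, was high in d12_f_289 (7.65 CPM), d12_f_245 (7.25) and d12_m_307 (5.92) and 0.236 in d12_f_271.

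Among the other signals, GDF11, of the TGF-beta family, ranged from 3.49 through 8.11 to 11.6 CPM and was in every embryo. The axon and vessel guidance factor SEMA3E spanned 2.80 to 11.9 CPM, and ALKAL2, a ligand of the ALK receptor, 2.59 to 16.5. ANGPTL4, an inhibitor of lipoprotein lipase, peaked in d12_f_289 at 17.2 CPM while the other 9 embryos lay at 5.97 or less. STC1, stanniocalcin 1, ranged from 0.764 in d12_m_276 to 7.83 in d12_m_307.

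Of the 11 secreted proteases, inhibitors, carriers and matrix proteins, ADAM28, a membrane metalloprotease that is also shed, had a mean of 20.1 CPM and ran from 3.96 in d12_f_245 to 47.4 in d12_m_276. POSTN, periostin, a matrix protein of mesenchyme, varied least in this class, from 2.31 through 3.80 to 5.66 CPM. SERPINA1, alpha-1-antitrypsin, a product of liver and yolk sac endoderm, had 17.6 CPM in d12_f_297, 13.8 in d12_f_245 and 12.0 in d12_f_299, and 0 counts in d12_f_271 and d12_m_307.

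TGM2, tissue transglutaminase, which cross-links proteins, had 59.0 CPM in d12_f_289 and 12.1 in d12_m_307, and the other embryos had 5.30 or less. PCSK6, a convertase that cuts pro-forms of TGF-beta family proteins, had 24.4 CPM in d12_f_297 and 10.3 in d12_f_289 with a median of 2.63. CDSN, a protein of cornified cell junctions, reached 12.1 CPM in d12_m_275 and 11.06 in d12_m_249 with a median of 1.20. In each of these genes 1 or 2 embryos carried most of the mean. The row TF is gene 396845, listed with the synonym PICA (inhibitor of carbonic anhydrase), and not transferrin itself: it ran from 0.659 to 5.75 CPM.

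SLPI, an inhibitor of neutrophil elastase found in mucus, had 21.1 CPM in d12_m_275 and 1.65 to 7.51 in the other 9 embryos. UABP-2, a uteroferrin-associated basic protein known as a secretion of the pregnant pig uterus, ran from 3.06 in d12_f_289 through 5.35 to 20.3 in d12_m_275, with d12_m_307 (16.6 CPM) next. The clusterin-like gene LOC110258505 was at 9.64 CPM in both d12_f_297 and d12_m_307 and had no count in d12_f_299.

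Cell surface receptors and adhesion molecules formed the largest class with a named role, 21 members. LYPD6, a membrane-anchored modulator of Wnt and nicotinic receptor signals, ran from 26.2 through 70.1 to 140 CPM, with d12_m_276 and d12_m_286 (121.1 CPM) on top. ADORA1, the adenosine A1 receptor, was among the steadiest members, from 30.9 through 43.7 to 62.6 CPM (mean 44.7 ± 10.7, SD, n = 10). GABRP, the pi subunit of GABA-A receptors, known from uterus and other epithelia, ran from 6.10 in d12_f_245 to 94.2 in d12_f_289.

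GPR183, the receptor for oxidised cholesterol derivatives made from the product of CH25H, ran from 2.31 CPM in d12_f_245 and 2.64 in d12_m_307 to 117 in d12_m_276. CH25H itself, cholesterol 25-hydroxylase, followed another order: 33.4 CPM in d12_f_297, 33.1 in d12_f_299, 14.7 in d12_f_245 and 0.605 in d12_m_307. Ligand enzyme and receptor were thus both lowest or near lowest in d12_m_307 but not highest in the same embryo.

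ITGB2, the beta chain of leucocyte integrins, had 81.4 CPM in d12_m_276, between 3.37 and 19.97 in 8 embryos and 1.21 in d12_m_307. ITGAM, a gene of one of its partner chains and no member, was at 28.2 CPM or more in every Day 12 embryo and had a Day 8 mean of 43.7 CPM. THY1, a surface protein of mesenchymal and other cells, ran from 12.4 through 32.2 to 86.7 CPM with d12_m_275 on top.

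PLA2R1, a receptor of secreted phospholipases, ran from 0.494 CPM in d12_f_245 through 13.3 to 41.0 in d12_m_286. IL2RG, the shared chain of several interleukin receptors, spanned 1.64 to 8.28 CPM, and ANPEP, aminopeptidase N, 1.11 to 10.7. SGCE, a sarcoglycan, was steady at 2.45 to 3.90 CPM except for 5.75 in d12_m_307. SHISA9 was at 0.115 CPM in d12_m_276 and 11.6 in d12_m_307.

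Among 6 channels, pumps and transporters, ATP6V1B1, a subunit of the vacuolar proton pump, was at 28.7 CPM in d12_f_245, 9.77 in d12_m_307 and at most 8.37 elsewhere. AQP5, a water channel of secretory epithelia, ran from 0.237 in d12_f_271 through 5.68 to 13.3 in d12_f_245. SLC6A6, the taurine transporter, ran from 0.130 in d12_m_307 to 13.5 in d12_f_289. SLC35G2 had no count in d12_f_245 and 13.4 CPM in d12_m_276. In d12_f_245, the smallest library, a count of 0 allows up to 0.494 CPM, the level of 3 counts.

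The 7 transcription regulators were the most even class with a named role (median coefficient of variation, the SD over the mean, of 0.488). CEBPA, a factor of epithelial, fat and myeloid differentiation, ran from 10.3 in d12_m_307 through 33.4 to 65.0 CPM in d12_m_276. HOXC13, known from hair and nail, ran from 1.12 in d12_m_307 through 10.1 to 32.7 in d12_m_276, and it was the 1 member among 12 measured HOX genes. DLX1 (5.36 to 30.5 CPM) and FOSL1 (4.54 to 19.2 CPM), an AP-1 subunit, showed the same ends, lowest in d12_m_307 and highest in d12_m_276. HEYL, a target of Notch signalling, had another order, 8.07 CPM in d12_f_245 against 0.420 in d12_m_276.

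Of the 13 genes of small GTPase and cyclic nucleotide signalling, TIAM2, an activator of Rac, had 18.7 through 40.7 to 68.1 CPM, and GPRIN3 2.31 in d12_f_245 through 36.2 to 107 in d12_m_276. GNA14, a G protein alpha subunit, was steady from 12.3 to 26.8 CPM. RASEF stood apart with 15.8 CPM in d12_f_245 and at most 4.21 in the other embryos. The phosphodiesterase PDE4A was at 16.6 CPM in d12_m_276 and at most 6.05 elsewhere, and its relative PDE4B was lowest in that embryo (1.11 CPM) and highest in d12_m_275 (8.15).

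Metabolic enzymes numbered 14. GPX7, a glutathione peroxidase of the endoplasmic reticulum, had a mean of 37.7 CPM and ran from 14.4 in d12_m_307 to 68.0 in d12_f_299. TAT, which starts tyrosine breakdown, ran from 0.346 in d12_m_307 through 6.98 to 57.8 in d12_m_276. HSD3B1 was at 0.165 CPM in d12_f_245, 0.778 in d12_m_307 and 2.19 in d12_f_271, and between 4.32 and 10.5 in the other 7 embryos.

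A further 48 members had no role in these classes or no name. MISP, an actin-binding protein of the cell cortex and mitotic spindle, ran from 4.32 in d12_m_307 and 5.15 in d12_m_275 through 33.9 to 76.2 CPM in d12_f_289. LOC100518097 (chr17:12506451-12588526) ran from 14.8 through 24.7 to 51.6 CPM, and the long non-coding RNA LOC110260766 (chr5:73918176-73947263) from 10.4 through 23.4 to 53.7. MORN3 had 54.7 CPM in d12_f_271 and at most 20.8 elsewhere. CAVIN2, a protein of caveolae, small pits of the cell membrane, had 28.9 CPM in d12_f_289, at most 2.33 in the other embryos and no count in d12_f_245.

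SAMD5 and MAP6 also spread widely. SAMD5 had 11.2 to 20.2 CPM in d12_f_297, d12_f_299, d12_m_249 and d12_m_275 and at most 4.48 in the other 6, with no count in d12_m_307. MAP6, which stabilises microtubules, had 18.1 CPM in d12_f_245 and 0.688 in d12_m_276.

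S100A8, S100A9 and S100A12, calcium-binding proteins of myeloid cells and stressed epithelia, and the interferon-inducible ISG15 and LOC100152306 made a class of 5. S100A9 had 281 CPM in d12_f_245, 70.9 in d12_m_275, 43.1 in d12_m_307 and 32.3 in d12_f_271, with a lowest value of 4.38 in d12_f_299. S100A8 had 75.5 CPM in d12_f_245 and at most 4.03 in the other 9, and S100A12 had 28.5 and at most 4.21. The 3 genes lie in 1 cluster on chr4:96209670-96238989. Without d12_f_245 the Day 12 means fell from 48.6, 8.79 and 4.03 CPM to 22.7, 1.39 and 1.31, so that S100A8 and S100A12 would no longer be members.

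ISG15, a ubiquitin-like protein that interferon induces, ran from 2.03 through 4.08 to 10.9 CPM, and LOC100152306 (named an interferon alpha-inducible protein 27-like gene in the study's gene tables) from 0.841 through 2.55 to 16.1. Both were highest in d12_f_245. BST2, an interferon-inducible surface protein, was also highest there at 7.58 CPM. IRF2, a regulator of interferon genes, had its highest value there too, 5.93 CPM, close to 5.73 in d12_m_275. Of the 42 genes on a list of interferon response, 27 were in the table, 6 of these were low on both earlier days and 3 were members, ISG15, BST2 and IRF2. The other 24 genes did not single out d12_f_245. Their median deviation from the gene mean was 0.40 there and 0.39 in d12_m_275 on the log2(CPM + 1) scale. Their summed CPM was highest in d12_m_307 (231, against 189 in d12_f_245).

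**Figure D3:**
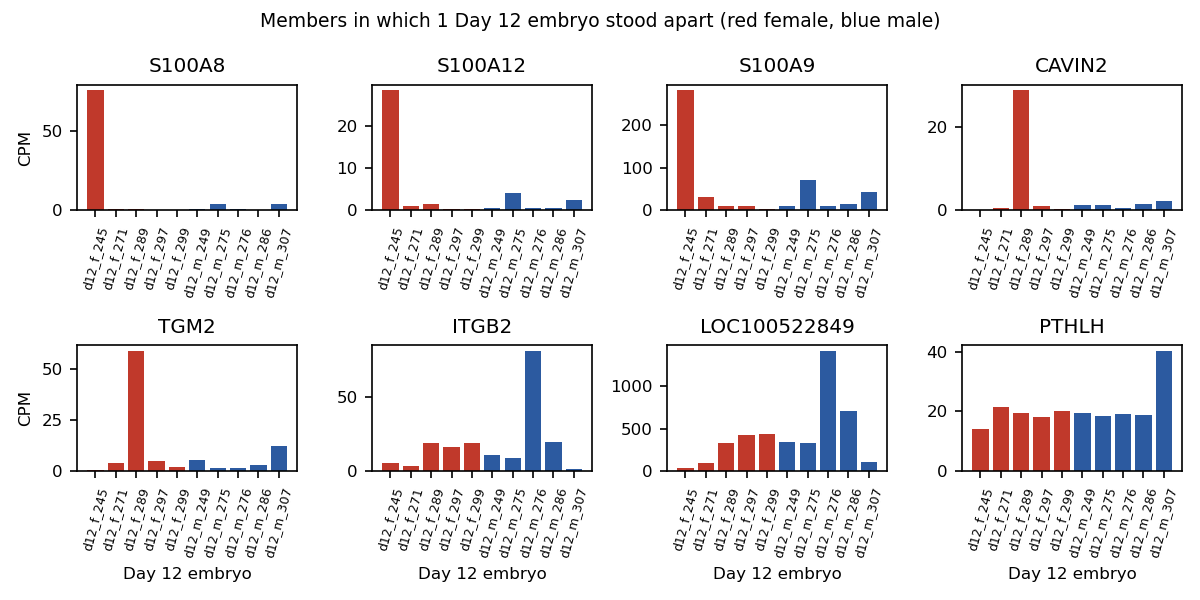
CPM (vertical axes, from 0, each panel with its own scale) of 8 members in the 10 Day 12 embryos (horizontal axes, by embryo number; red female, blue male). Embryo d12_f_245 stood apart in S100A8 (75.5 CPM), S100A12 (28.5) and S100A9 (281), d12_f_289 in CAVIN2 (28.9) and TGM2 (59.0), d12_m_276 in ITGB2 (81.4) and LOC100522849 (1413), and d12_m_307 in PTHLH (40.2).

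Lists of marker genes were set beside the members, which make up 1.05% of all genes of the table, so that few or none would fall on a short list at that share. No member came from the lists of primitive streak (14 of 31 genes in the table), endothelium and blood (14 of 46), smooth and cardiac muscle (16 of 25), trophoblast factors and products (27 of 38), germ cells (17 of 25), neural and surface ectoderm (14 of 37) or chemokines (5 of 49). On the trophoblast list IFN-DELTA-1 met the limits and was left out by name, and 24 of the 27 genes had at least 3 CPM on Day 12 and were not low on both earlier days. Members came from mesenchyme (POSTN and THY1, of 24 in the table), extracellular matrix (POSTN, of 38), visceral endoderm and yolk sac (SERPINA1, of 32; the row TF shares only the symbol of its marker), endometrial epithelium (STC1 and UABP-2, of 13) and maternal leucocytes and red cells (S100A8, S100A9 and S100A12, of 8). The last list had 5 of its 8 measured genes low on both earlier days, the other 2 being LYZ and CD74.

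By gene family, 3 of 16 S100 genes, 2 of 14 serpins (SERPINA1 and SERPINB7), 2 solute carriers (SLC35G2 and SLC6A6), 1 of 11 WNT ligands, 1 of 10 BMP and GDF ligands and 1 of 22 matrix metalloproteases and ADAMTS genes (ADAMTSL3) were members. No FGF ligand (of 4), forkhead (of 20), SOX (of 8), T-box (of 5), keratin (of 14), claudin (of 10), cytochrome P450 (of 13, by symbol) or interleukin (of 13) was a member. LOC100521659, named as cytochrome P450 26B1 in the study's gene tables and so an enzyme that clears retinoic acid, was a member under its LOC identifier, at 0.938 to 8.00 CPM. In all 22 members had only a LOC identifier, of 1386 such genes in the table.

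Some members were neighbours on a chromosome. Of 132 placed members, 15 had another member or one of the 4 genes left out by name within 100 kb. The share in other sets of genes is not given here. Beside the S100 genes these were SAMD11, PLEKHN1 and ISG15 on chromosome 6, with gaps of 19823 and 27061 bp, GYG2 and ARSE on X (42357 bp), SERPINA1 and UABP-2 on chromosome 7 (68915 bp), and LOC100153783 and SERPINB7 on chromosome 1 (16222 bp). The long non-coding RNA LOC106509142 (chr1:201649871-201657917) spans IFN-DELTA-1, and the pseudogene LOC110255452 lies 5676 bp further on. LOC106509142 ran from 2.64 in d12_f_245 through 25.7 to 51.9 CPM in d12_m_276, and LOC110255452 from 2.97 in d12_f_245 to 31.5 in d12_m_276. How reads in the overlap with IFN-DELTA-1 were assigned is not given in the sources used here, so the counts of LOC106509142 are uncertain.

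Spread between the Day 12 embryos was wide. The median member had a coefficient of variation of 0.636, with quartiles of 0.482 and 0.858, and its highest embryo stood 10.4-fold above its lowest (median over members without a zero). The 10077 other genes in the same range of Day 12 means had a median coefficient of 0.271. The order was the same within each range of levels: 0.717 for 53 members against 0.432 for other genes between 3 and 5 CPM, 0.697 against 0.356 between 5 and 10 CPM, 0.545 against 0.275 between 10 and 30 CPM, and 0.566 against 0.237 from 30 CPM up. Members had to be low on 2 days, which other genes did not, and the difference was not tested.

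At the wide end were S100A8 (2.67), CAVIN2 (2.34), S100A12 (2.16), TGM2 (1.90), S100A9 (1.74), PCSK6 (1.37), RASEF (1.35) and ITGB2 (1.25). In 5 members, the first 5 of these, 1 embryo held over 50% of the summed CPM of the 10. At the narrow end were LOC106507765 (0.232), ADORA1 (0.239), STAMBPL1 (0.244), GNA14 (0.244), SGCE (0.264), LOC100153783 (0.281), LOC110256540 (0.293) and LOC102167554 (0.303). Without its highest embryo, 21 members fell under 3 CPM.

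Embryo d12_m_276 held the highest value of 44 members, d12_f_245 of 24 and d12_f_289 of 20, and d12_m_249 of 1. Embryo d12_f_245 held the lowest value of 38 members and d12_m_307 of 36. Embryo d12_f_245 was the smallest library (6068212 counts, against 15997367 to 34002508 in the other Day 12 embryos), which widens its counting error. Embryo d12_m_276 also held the lowest value of 19 members, and with TMM or RLE scaling it was highest in 48.

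Members were grouped by average linkage on their profiles over the 10 Day 12 embryos, as 1 minus Pearson's correlation of log2(CPM + 1), into 5 groups; the same values made and describe the groups. The first group held 72 members, LOC100522849, ATP10B, LYPD6, CEBPA, LEP, WNT7B, INHBB and HSD3B1 among them. Its median deviation from the gene mean was 1.04 in d12_m_276 and 0.69 in d12_m_286, and -0.97 in d12_m_307, -0.92 in d12_f_245 and -0.55 in d12_f_271 on the log2(CPM + 1) scale. Embryo d12_m_276 was the highest embryo of 44 of the 72.

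The second group of 32 members differed from the first most in d12_f_245 and d12_m_276, where it had the opposite sign. Both groups were low in d12_f_271 and d12_m_307. The second group was also opposite in sign to the first in d12_m_286 (-0.43 against 0.69) and d12_m_275 (0.37 against -0.22). It held the 5 S100 and interferon-inducible genes, SERPINA1, AQP5, CH25H, HEYL and BST2, and was highest in d12_f_245 (median deviation 1.20) and lowest in d12_f_271 (-0.93), d12_m_276 (-0.78) and d12_m_307 (-0.67). Of its 32 members, 21 were highest in d12_f_245.

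The third group of 20 members, with THY1, PTHLH, STC1, UABP-2 and IL2RG, was highest in d12_m_307 (0.93) and d12_m_275 (0.64) and lowest in d12_m_276 (-0.88). All 10 members of the fourth group, TGM2, CAVIN2, ANGPTL4, CIDEA, GYG2, GADD45B, ARHGAP22, C4H1orf54, LOC100518097 and LOC106506715, were highest in d12_f_289. The last group held GPX7, C1QTNF4 and DUOX1.

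**Figure D4:**
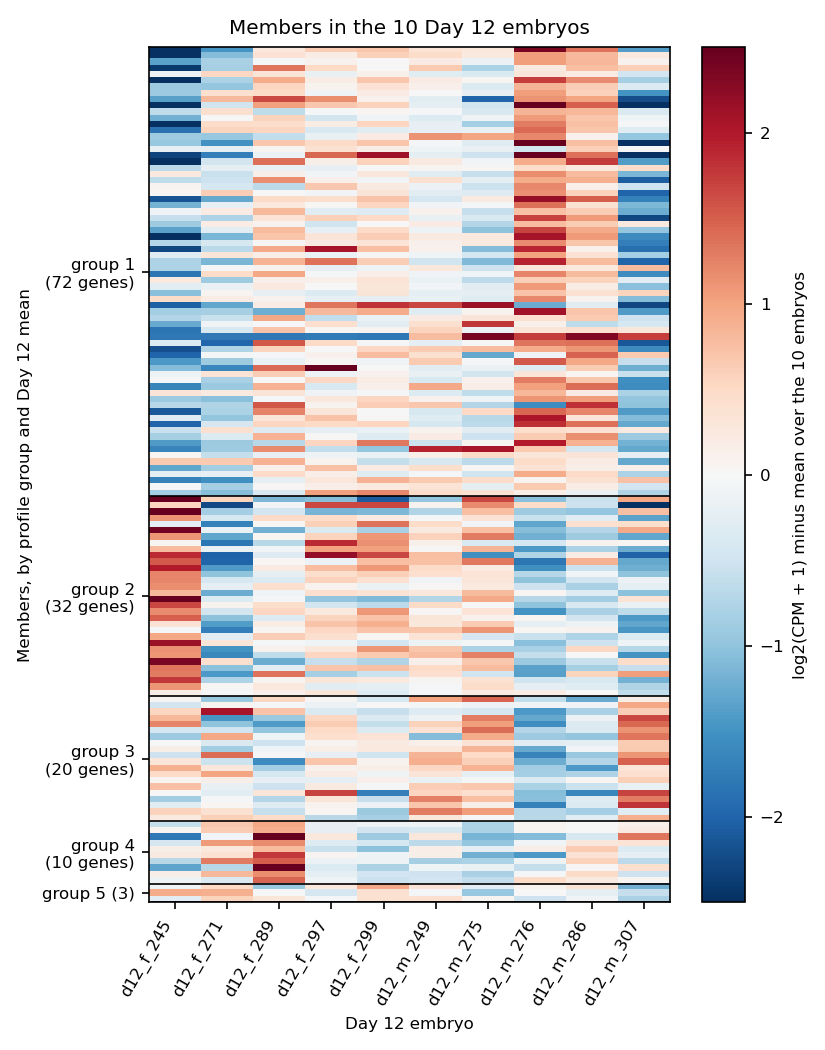
Deviation of each member from its own mean over the 10 Day 12 embryos (colour, log2(CPM + 1), red above and blue below, cut at 2.5 either way) for 137 members (rows, by profile group and Day 12 mean) and 10 embryos (columns). Embryo d12_m_276 was highest for 44 of the 72 members of the first group, d12_f_245 for 21 of the 32 of the second, d12_m_307 for 11 of the 20 of the third and d12_f_289 for all 10 of the fourth.

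Lists of marker genes moved across the same embryos, here with members left out. Over 30 genes of visceral endoderm and yolk sac, such as APOA1, the median deviation was 0.87 in d12_f_245, 0.69 in d12_f_297 and 0.53 in d12_f_299, and -0.84 in d12_f_271, -0.55 in d12_m_276 and -0.55 in d12_m_307. Their summed CPM ran from 2080 in d12_m_276 to 11387 in d12_f_245. Over 11 genes of endometrial epithelium it was 0.76 in d12_f_245 and 0.77 in d12_m_307, and -0.73 in d12_m_276 and -0.77 in d12_m_286, with a summed CPM of 28.2 to 125. Over 37 genes of extracellular matrix it ran from -0.54 in d12_f_271 to 0.62 in d12_m_275, and over 27 trophoblast genes from -0.47 in d12_m_275 to 0.53 in d12_f_271. The endometrial list is not one of uterine cells alone. Of its 13 genes in the table, 9 had at least 3 CPM on Day 12, and 7 of these were not low on both earlier days. FOXA2, which is on the endoderm list too, had 6.57 CPM on Day 8 and 28.3 in d12_f_245.

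The second group of members and the endoderm list were thus both highest in d12_f_245 and lowest in d12_f_271. A high value in d12_f_245 was not particular to the endoderm list. Over 14 genes of endothelium and blood the median deviation was 0.81 in d12_f_245, -0.39 in d12_f_271 and -0.64 in d12_m_276. By summed CPM these 14 genes were lowest in d12_f_245 (532). The HOX (0.54), SOX (0.55) and interleukin (0.79) genes also had their highest median there. The third group and the endometrial list did not match as closely. Both had their highest median in d12_m_307, but the list was as high in d12_f_245 (0.76), where the third group lay at 0.11. By summed CPM the list was highest in d12_f_245 (125), and d12_m_276 (90.8) lay above d12_m_307 (78.8). How far the shares of endoderm or uterine cells in an embryo bear on these members was not tested. Of 31 genes of maternal leucocytes and red cells, 8 were in the table and 5 of these were not members. CD74 was 9.72 CPM in d12_f_245 and 10.8 in d12_m_307 and at most 2.18 in the others, LYZ was highest in d12_f_297 (14.8 CPM) and 0.165 in d12_f_245, and HBB, a red cell globin, was highest in d12_m_307 (9.34 CPM) and 1.48 in d12_f_245. ITGAM had its lowest Day 12 value in d12_f_245 (28.2 CPM), and GZMA, a granzyme of cytotoxic lymphocytes, was 1.15 CPM there against a Day 12 mean of 4.77. The median deviation of the 5 genes was -0.83 in d12_f_245, where the S100 genes were highest, -0.88 in d12_m_276 and 0.88 in d12_m_307. These genes mark different cells, and ITGAM was already expressed on Day 8. Their median is therefore not a measure of maternal leucocytes. PTPRC, a gene of leucocytes in general, and CD3E, a gene of T lymphocytes, had no row in the table used. The part of maternal cells in the S100 values was not tested.

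**Figure D5:**
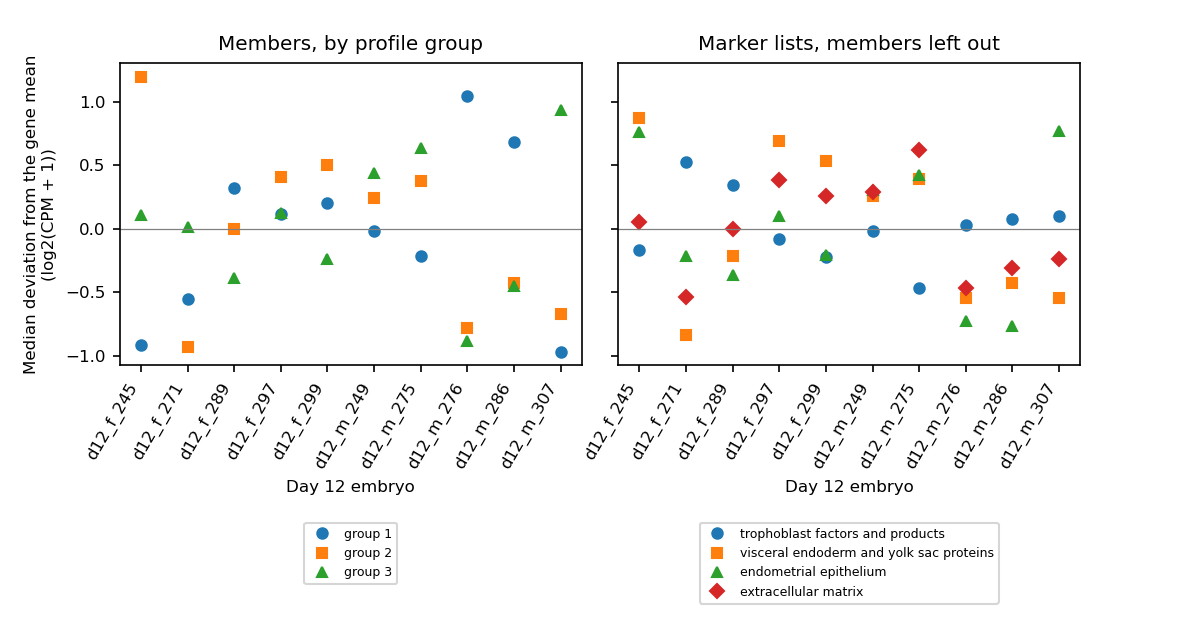
Median deviation from the gene mean on the log2(CPM + 1) scale (vertical axes) in each Day 12 embryo (horizontal axes), for the first 3 profile groups of members (left) and for 4 marker lists with members left out (right). The second group and the visceral endoderm list were both highest in d12_f_245 (1.20 and 0.87) and lowest in d12_f_271 (-0.93 and -0.84). The endothelium and blood list, not drawn, was also highest in d12_f_245 (0.81).

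Sex was not used to select the members, so female and male embryos of Day 12 were compared in the edgeR quasi-likelihood test over the 12220 genes of the Day 12 table with Benjamini-Hochberg adjustment. All 137 members were in it. At an adjusted p under 0.05, 1 of the 137 members was called, where 0.123% of all genes were. Called by an unadjusted p under 0.05 were 10 of 137 members and 22.7% of all genes. DESeq2, which gave an adjusted p for 113 members, called 1 of them and 1.63% of its genes, and the robust GLM of edgeR called 2 of 137 and 0.827%. In 2 members the 5 female and 5 male embryos did not overlap, as in 3.85% of all genes. Median differences, female minus male, were -0.12 over the members and -0.00 over all genes on the log2 scale, with 60 members higher and 77 lower in female embryos.

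The called gene was LOC110257929, a gene of the Y chromosome (chrY:41171519-41182903) named as similar to RNA-binding motif protein, X chromosome, in the study's gene tables. Male embryos had 4.93, 10.5, 10.7, 16.2 and 17.0 CPM, and the 5 female embryos had 1 count together (edgeR quasi-likelihood adjusted p = 1.51e-05). Its place among the members rests on averaging over both sexes. In male embryos alone the means were 0.436 CPM on Day 8, 0.920 on Day 10 and 11.9 ± 4.90 on Day 12 (SD, n = 5), so the Day 10 mean of males lay above the limit of 0.5 CPM.

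NEFM, a neurofilament subunit, came next by unadjusted p. It was 7.87, 8.24, 10.3, 14.1 and 18.8 CPM in female embryos and 7.78, 17.6, 32.9, 36.5 and 38.4 in male embryos, a log2 difference of -1.17 (SE 0.42) with an adjusted p of 0.198 in the quasi-likelihood test. The groups overlapped, since d12_m_307 had the lowest value of all 10 embryos. It passed in the robust GLM of edgeR (adjusted p = 0.0424) and in the fit of all 30 embryos (adjusted p = 0.0346), and it was the second member called there.

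STAMBPL1, a deubiquitinase, was the other member without overlap, at 9.39 to 15.3 CPM in female and 15.6 to 21.6 in male embryos, a log2 difference of -0.51 (SE 0.19, edgeR adjusted p = 0.198). BST2 (4.85 against 2.57 CPM, log2 0.93, SE 0.35) and C1QTNF4 (13.2 against 7.36 CPM, log2 0.86, SE 0.34) were higher on average in female embryos, and INHBB (3.05 against 7.70 CPM, log2 -1.34, SE 0.52) lower. None of these 3 passed, each with an edgeR adjusted p of 0.198. BST2 was highest in d12_f_245 and INHBB in d12_m_276.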

How the data were processed

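The authors sequenced stranded mRNA libraries as single-end reads, trimmed them (Trim Galore), placed them on the NCBI assembly Sscrofa11.1 and dropped weakly expressed genes by CPM; which aligner and counter were used, and at what CPM, is not given in the sources used here. The deposited counts are raw reads per gene, without normalization; no column holds results of the authors' own comparisons. From them CPM was computed per embryo with the column total (log2 values with a pseudocount of 1). Depth was 6068212 to 34002508 counts, and intervals and floors cover counting error only. The members and lists were chosen with earlier results of these data known, and roles and profile groups after values were seen. Named genes are the 25 highest, those on lists or in families, the 8 largest and smallest coefficients of variation, those at the limits, those first in the sex test and neighbours; others were named after their values were seen, as examples of a role or profile. The sex test used edgeR 4.0.16 (R 4.3.3) on the Day 12 table, with TMM factors and robust dispersion; DESeq2 1.42.0, other scalings, other limits and each embryo left out were alternatives. The test was checked on simulated data. Gene positions came from RefSeq for the same assembly. No sequences were used here. Some genes are counted among the members but not reported here.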

Additional observations from a re-analysis of the deposited data

Results flagged for a closer look

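In 32 of the members reported here the highest of the 10 Day 12 embryos stood apart from the other 9 by Dixon's criterion, which sets the gap to the next embryo against the whole range. None of them had a low embryo that stood apart. The criterion marks about 1 in 20 groups by chance in normal data, counting high and low ends together. It marked a high embryo in 11.9% and a low embryo in 0.953% of the 10077 other genes in the same range of Day 12 means. The members were selected on their Day 12 mean, and 9 of the 32 would lie under 3 CPM without their high embryo, so that embryo brought them in. The number of such members is therefore in part set by the selection. The values of different members in 1 embryo come from 1 library and are not independent. Embryo d12_m_276 stood apart in 10 members: LOC100522849 (1413 CPM, next 705), GPR183 (117 CPM, next 56.6), ITGB2 (81.4 CPM, next 19.97), TMEM229B (30.1 CPM, next 16.4), CHN2 (34.4 CPM, next 16.6), FOSL1 (19.2 CPM, next 11.9), ARHGAP4 (15.6 CPM, next 8.75), ALKAL2 (16.5 CPM, next 9.56), WNT7B (24.7 CPM, next 10.4) and PDE4A (16.6 CPM, next 6.05). Embryo d12_f_245 stood apart in 11 members: S100A9 (281 CPM, next 70.9), S100A8 (75.5 CPM, next 4.03), ATP6V1B1 (28.7 CPM, next 9.77), MAP6 (18.1 CPM, next 9.31), ISG15 (10.9 CPM, next 6.12), S100A12 (28.5 CPM, next 4.21), CCDC42 (12.9 CPM, next 5.04), XRRA1 (10.9 CPM, next 5.94), LOC100152306 (16.1 CPM, next 3.73), RASEF (15.8 CPM, next 4.21) and LOC110257410 (11.04 CPM, next 3.58). Embryo d12_m_307 stood apart in 3 members: PTHLH (40.2 CPM, next 21.3), SGCE (5.75 CPM, next 3.90) and SHISA9 (11.6 CPM, next 4.83). Embryo d12_f_271 stood apart in 1 member, MORN3 (54.7 CPM, next 20.8). Embryo d12_f_289 stood apart in 4 members: TGM2 (59.0 CPM, next 12.1), ANGPTL4 (17.2 CPM, next 5.97), CAVIN2 (28.9 CPM, next 2.33) and LOC106506715 (8.96 CPM, next 4.09). Embryo d12_f_299 stood apart in 1 member, RNF128 (17.1 CPM, next 9.67). Embryo d12_m_275 stood apart in 1 member, SLPI (21.1 CPM, next 7.51). Embryo d12_f_297 stood apart in 1 member, PCSK6 (24.4 CPM, next 10.3).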

How the results depend on the processing

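The number of members depends on the limits by construction: 70 with a limit of 0.25 CPM on Days 8 and 10, 274 with 1 CPM, 216 with 2 CPM on Day 12, 84 with 5 CPM, and 50 when every Day 8 and Day 10 embryo had to lie under 0.5 CPM. Leaving out 1 embryo at a time gave 132 to 146 members, a median coefficient of variation of 0.599 to 0.672, a median share of counts of 0.198% to 0.211% and 1 to 1 members called between the sexes. The robust GLM of edgeR and the fit of all 30 embryos in 6 groups each called 2 members between the sexes. Without d12_f_245, 8 members left, among them HEYL, LOC100152306, LOC110257410, RASEF, RSPO1, S100A8 and S100A12. Without d12_f_289, CAVIN2, LOC106506715 and RSPO1 left, and without d12_m_307, LOC102161330, LOC110258505, RSPO1, SHISA9 and STC1. With TMM scaling 120 genes met the limits, 119 of them members. The first profile group held 76 members with TMM, 67 with a pseudocount of 0.5, 82 when 4 groups were cut, 60 without d12_f_245 and 58 without d12_m_276. By the rule in female embryos alone 158 genes were chosen, 125 of them members, and in male embryos alone 115, 100 of them members. The alternatives of the profile groups and of single sexes were chosen after seeing the data. No paired analysis was possible because the gilt of an embryo, which female and male embryos share, is not in the labels, and each embryo number belongs to 1 group only. Depth limits members near 0.5 CPM, most of all in d12_f_245, where 3 counts are 0.494 CPM.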

Other observations

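Several genes that form part of the same lists rose to just short of the limits or were not low enough before. BMP4, a mesoderm signal, had means of 0.514, 0.488 and 6.82 CPM on Days 8, 10 and 12, and MUC4, a surface mucin, 0.0148, 0.511 and 8.61 CPM. MUC4 ran from 3.15 CPM in d12_m_286 to 21.2 in d12_m_275 and 13.3 in d12_m_307, the embryos in which the third group of members was also high.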
